A study of Sus scrofa with 10 samples.

Results

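Liver RNA of 10 male pigs' samples, 5 from animals of a high growth and fatness phenotype and 5 from animals of a low one, varied along an axis that cut across both phenotypes. The 7 libraries at the ends of that axis are described here. The upper end holds 3 libraries, high-growth replicates 1 and 3 and low-growth replicate 2. The lower end holds 4 libraries, high-growth replicates 2 and 4 and low-growth replicates 4 and 5. High-growth replicate 5 and low-growth replicates 1 and 3 lie between the ends. The ends were chosen from the measured expression values themselves, with ITIH4, HAL, KRT8, CYP1A2 and RGN as marker genes, so every difference between them is a description and carries no test. All samples are liver collected at slaughter, and the labels give the number 175 for age with no unit. The labels used here state no breed, genotype or treatment, and the labels do not say that each sample came from a separate animal.

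In an acute phase response, cytokines such as IL6 act on hepatocytes through the kinases JAK1 and JAK2 and the transcription factor STAT3, and the liver changes the mixture of proteins that it secretes into blood. Positive acute phase proteins, among them fibrinogen and, in pigs, ITIH4, are made in larger amounts, while carriers such as albumin and transthyretin are made in smaller amounts. Enzymes of drug oxidation are known to be lowered by inflammatory cytokines in liver.

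Values are RPKM, a read count divided by gene length and by library size, and differences are means of log2(RPKM + 1) of the upper end minus the lower end. Per-library values are given for the upper end in the order high-growth replicate 1, high-growth replicate 3, low-growth replicate 2, and for the lower end in the order high-growth replicate 2, high-growth replicate 4, low-growth replicate 4, low-growth replicate 5. A gene was counted at an end where its mean was at least 2-fold higher there on that scale and no library of one end overlapped the other. Of 10931 genes whose mean over the libraries reached 1 RPKM, 221 were counted at the upper end (2.02%) and 308 at the lower end (2.82%). These shares contain the choice of the libraries, so nothing is read from them. Counts in the gene lists below contain it too, and several lists hold a marker gene of the axis. Without the 2-fold requirement the ends did not overlap in 2868 genes higher at the upper end (26.2%) and in 1215 higher at the lower end (11.1%). The median difference of all tested genes was 0.12 on the RPKM scale, 0.012 with libraries scaled by median ratios and 0.051 with mitochondrial messages removed, and the differences below, all on the RPKM scale, are to be set against 0.12. Positive differences were found in 62.1% of the genes on the RPKM scale and in 5613 of the 10931 with median-ratio scaling. The genes nearest the threshold were APEX2 and NOLC1 just inside and CHPF2 and GADD45B just outside at the upper end, and SYBU and DECR1 just inside and DHRS3 and HOGA1 just outside at the lower end.

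Some libraries stood apart. Low-growth replicate 4 was the lowest lower-end library in 177 of the 221 upper-end genes and the highest in 248 of the 308 lower-end genes, and it had the largest share of mitochondrial messages, 20.2% of the summed RPKM. Low-growth replicate 2 was the highest upper-end library in 111 of the 221 and had the highest summed level at either end of Kupffer cell, neutrophil, and B and plasma cell markers, while that of T and NK cell markers was highest in low-growth replicate 4. The listed brain and nerve markers had a summed RPKM of 12.8 in high-growth replicate 1 and 12.8 in high-growth replicate 5, against at most 3.6 in the other 8 libraries. Of these markers 22 were matched and 0 passed the filter, so the sums are of low values, and their origin was not tested. Without low-growth replicate 4 the counts were 149 at the upper and 254 at the lower end, without low-growth replicate 2 they were 240 and 378, and without high-growth replicate 1 they were 276 and 348. Sequencing depth relative to high-growth replicate 1 was inferred from ratios of values under 0.01 RPKM, resting on only 4 to 13 genes per library. It came to 1.02 and 0.748 in the other upper-end libraries and 0.767 to 1.03 at the lower end, and the absolute depth is unknown.

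**Figure D1:**
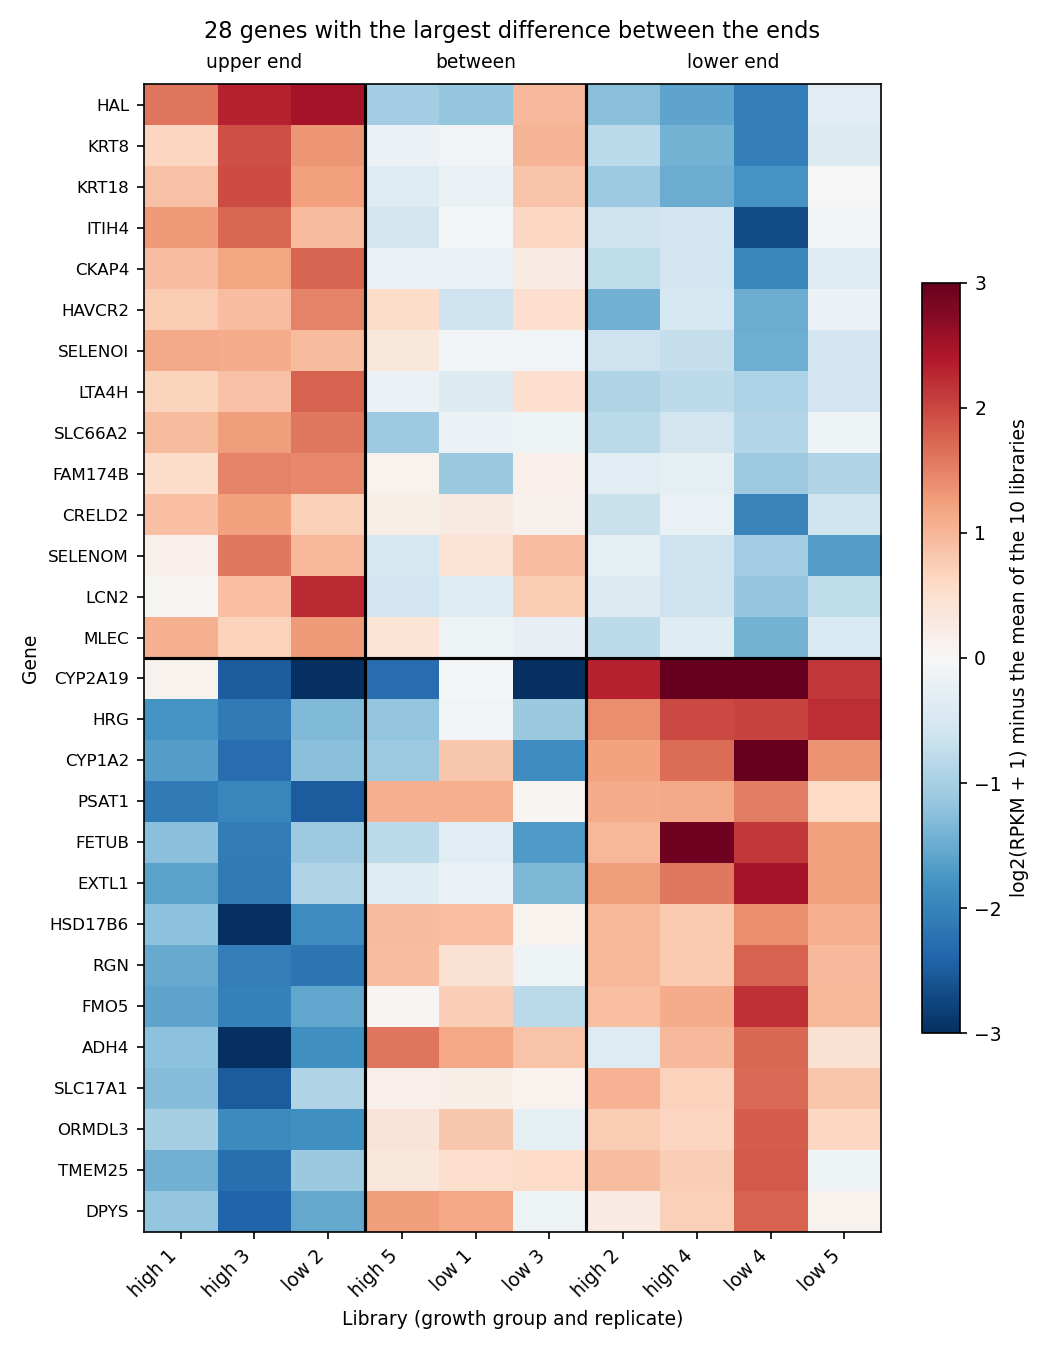
Heat map of the 14 genes with a symbol and the largest difference at each end (rows) in the 10 libraries (columns, upper end left, lower end right); colour is log2(RPKM + 1) minus the gene's mean over the 10 libraries, and colours end at 3 in both directions. Low-growth replicate 4 has the strongest colours of the lower end in most rows, and the 3 libraries between the ends lie nearer the upper end in FETUB and nearer the lower end in PSAT1 or RGN.

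HAL (ENSSSCG00000000892), the histidine ammonia-lyase that starts histidine breakdown, had the largest difference of the named upper-end genes. It had 303, 496 and 564 RPKM at the upper end, against 40.9, 32.1, 22.9 and 79.1 RPKM at the lower end, a difference of 3.45. The lowest upper-end library lay well above every lower-end library. ITIH4 (ENSSSCG00000011453), which encodes the serum protein known in pigs as Pig-MAP or major acute phase protein, had 7951, 10831 and 6369 RPKM at the upper end, against 2153, 2215, 514 and 3113 RPKM at the lower end, a difference of 2.30. Low-growth replicate 4 was far below the other lower-end libraries for this gene. Without low-growth replicate 4 the difference of ITIH4 was 1.74. HAL and ITIH4, like KRT8, CYP1A2 and RGN below, are marker genes of the axis, so their separation follows from the choice of the ends.

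The acute phase name covers only part of the positive acute phase proteins. Of 32 listed genes 19 were matched by symbol and 18 passed the filter on low values. Of these, 4 were counted at the upper end and 0 at the lower end, and the median difference was 0.43, against 0.12 for all genes. FGG (ENSSSCG00000024314), the gamma chain of fibrinogen, had 11102, 12533 and 8504 RPKM at the upper end, against 3711, 5889, 2410 and 6071 RPKM at the lower end, a difference of 1.32. The beta chain gene FGB reached 25386, 30170 and 20988 RPKM, against 15086, 18874, 7802 and 18652 RPKM, a difference of 0.82 that did not reach 2-fold. The lipopolysaccharide-binding protein gene LBP had 797, 803 and 653 RPKM at the upper end, against 392, 526, 296 and 634 RPKM at the lower end. In FGG, FGB and LBP the ends did not overlap.

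LCN2, which encodes the iron-sequestering protein lipocalin 2, was low everywhere, with 2.76, 5.83 and 16.3 RPKM at the upper end, against 1.75, 1.39, 0.64 and 1.16 RPKM at the lower end. S100A8, a calprotectin subunit that neutrophils and activated macrophages also make, had 2.52, 1.85 and 5.48 RPKM, against 0.38, 0.40, 0.23 and 0.43 RPKM. Both were highest in low-growth replicate 2. Of 14 neutrophil markers 9 were matched, with a summed level of 3.53 to 10.4 RPKM at the upper end and 1.72 to 2.35 RPKM at the lower end. S100A8 was the single one to pass the filter, MPO, the granule peroxidase of neutrophils, was at most 0.12 RPKM in every library of both ends, and MMP8 was at 0 in 3 of the 4 lower-end libraries. S100A8, with a lower-end mean of 0.36 RPKM, passed the filter only through the upper-end libraries. Its count among the positive acute phase genes of the upper end rests on that. The part of such cells in the differences of LCN2 and S100A8 was not tested.

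Other classical members of the response did not separate the ends. CRP, the C-reactive protein gene, had 909, 783 and 1933 RPKM at the upper end, against 298, 1077, 242 and 1462 RPKM at the lower end, so low-growth replicate 5 lay above 2 of the 3 upper-end libraries. A2M, a protease inhibitor of plasma, had 1123, 1757 and 581 RPKM, against 513, 625, 390 and 547 RPKM, and overlapped in 1 pair of libraries. The central complement gene C3 differed by 0.29, the heme carrier gene HPX by -0.11, the complement gene CFB by -0.12, the complement regulator gene SERPING1 by -0.04, and C9 by 0.08, all with overlap. C9 changed its sign under scaling by median ratios and with mitochondrial messages removed. ITIH3, a heavy chain of inter-alpha-trypsin inhibitor, had 163, 232 and 419 RPKM at the upper end, against 356, 482, 552 and 320 RPKM at the lower end. SAA genes, HP, ORM1, FGA, SERPINA3 and HAMP are not analysed here. For these reasons the ends are called upper and lower rather than by the response.

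The signalling chain below IL6 lay toward the upper end. In the list of IL6 and IL1 signalling 19 genes passed, 4 were counted at the upper end, 0 at the lower end, and the median difference was 0.53. The receptor-bound kinase gene JAK1 had 40.9, 31.7 and 33.3 RPKM at the upper end, against 14.3, 16.1, 8.21 and 15.3 RPKM at the lower end. STAT3 (ENSSSCG00000017403) had 210, 199 and 217 RPKM, against 96.5, 116, 65.6 and 91.0 RPKM, a difference of 1.19. The spread of STAT3 within the upper end was small, with a mean of 208 ± 9.32 RPKM (SD, n = 3), against 92.4 ± 21.0 RPKM at the lower end (SD, n = 4). OSMR, the oncostatin M receptor, and BCL3, a nuclear partner of NF-kB, differed by 1.16 and 1.07 and were no longer counted without low-growth replicate 4 (0.97 and 0.96).

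Among the receptors, IL1R1 had 256, 238 and 210 RPKM at the upper end, against 89.5, 125, 102 and 186 RPKM at the lower end, and the shared receptor subunit gene IL6ST had 38.2, 29.8 and 26.5 RPKM, against 17.6, 22.8, 13.8 and 17.7 RPKM. The ends did not overlap in either. The ligand-binding receptor gene IL6R differed by -0.23 and overlapped. IRF1, an interferon-induced transcription factor gene, ran the other way, with 4.82, 5.90 and 8.78 RPKM at the upper end, against 10.4, 9.10, 10.9 and 11 RPKM at the lower end. SOCS3, CEBPB and CEBPD are not analysed here.

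FKBP5 and ZBTB16, which are induced by glucocorticoids in many cell types, were both counted at the upper end. FKBP5, a co-chaperone of the glucocorticoid receptor, had 82.5, 73.0 and 109 RPKM at the upper end, against 36.8, 40.6, 17.2 and 30.4 RPKM at the lower end. ZBTB16, a zinc finger transcription factor gene, had 11, 10.6 and 9.08 RPKM, against 3.73, 5.44, 2.15 and 4.72 RPKM. TAT, the tyrosine aminotransferase gene and another glucocorticoid target, had 484, 896 and 1173 RPKM, against 458, 474, 346 and 303 RPKM, a difference of 1.04 in which high-growth replicate 1 lay only just above the lower end. TAT was no longer counted without low-growth replicate 2 (0.76), without low-growth replicate 4 (0.98), with median-ratio scaling (0.91) or with mitochondrial messages removed (0.95). The receptor gene itself, NR3C1, differed by 0.32. FKBP5 and ZBTB16 belonged to no list and were chosen after their values were seen. No list of glucocorticoid targets was drawn up, so the choice is one-sided. PCK1 and PER2, which glucocorticoids can also induce, were counted at the lower end (-1.07 and -1.20). A part of glucocorticoids in the differences was not tested.

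**Figure D2:**
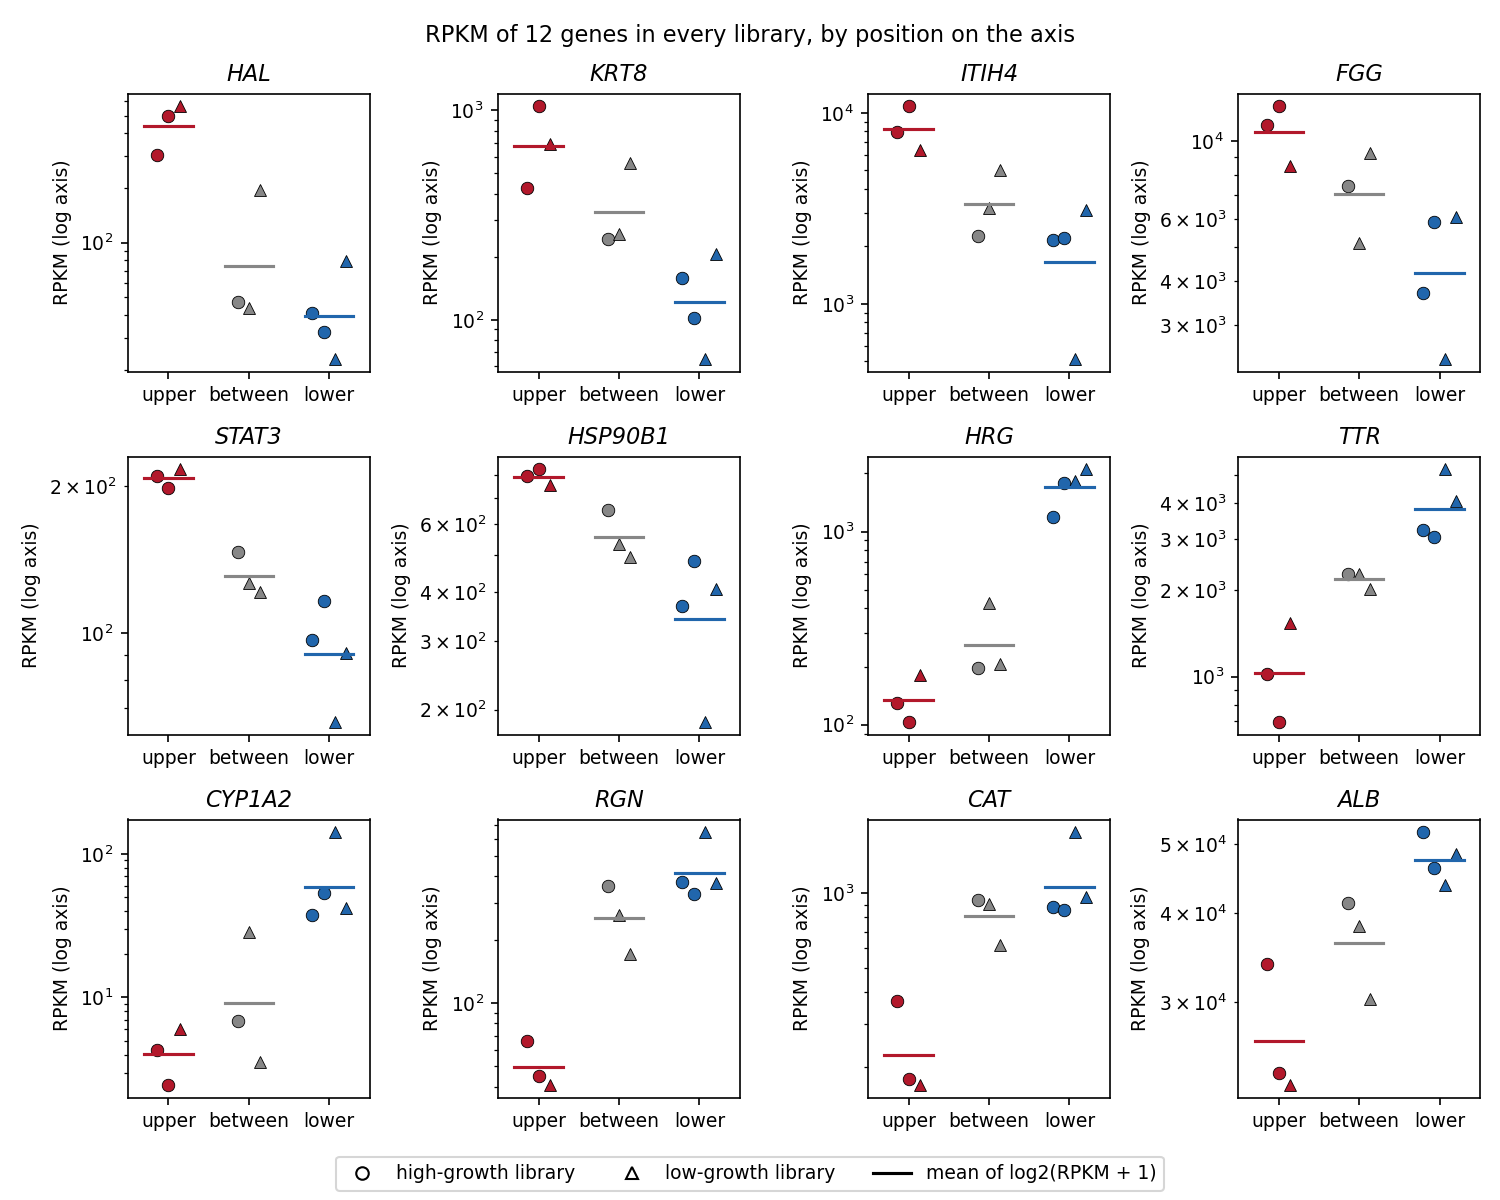
RPKM (log axes) of 12 genes in every library; circles are high-growth and triangles low-growth libraries, red is the upper end, grey the libraries between, blue the lower end, and lines are means of log2(RPKM + 1) turned back to RPKM. In each panel the red and blue points do not overlap, and for HRG and CYP1A2 some grey points lie at upper-end levels while for RGN and CAT they lie nearer the lower end.

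Genes of the secretory route were higher at the upper end. All 18 tested members of the list of endoplasmic reticulum chaperones and the unfolded protein response had a positive difference, 8 were counted at the upper end and 0 at the lower end, and the median was 0.89. HSP90B1, the reticulum's HSP90, had 795, 830 and 757 RPKM at the upper end, against 369, 482, 186 and 409 RPKM at the lower end. HSPA5, the main chaperone of the compartment, had 1057, 1060 and 509 RPKM, against 377, 496, 148 and 479 RPKM, so low-growth replicate 2 lay only just above high-growth replicate 4. CRELD2, a secreted stress-inducible protein gene, had 84.8, 107 and 74.8 RPKM, against 28.1, 39.0, 10.7 and 29.2 RPKM. SEL1L, the adaptor of the reticulum's degradation complex, and HYOU1, an exchange factor for HSPA5, differed by 1.46 and 1.43, and the stress sensor gene ATF6 by 1.11. Without low-growth replicate 4 3 of the 18 were counted and the median was 0.65, and with scaling by median ratios 4 were counted and the median was 0.76. All 18 differences stayed positive under median-ratio scaling.

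The machinery that moves proteins into and out of the reticulum followed with smaller steps. Of 46 tested members 43 had a positive difference, the ends did not overlap in 35 of them in that direction, and 2 were counted, with a median of 0.45. SEC61A1, the pore of the translocon, had 94.5, 92.4 and 82.9 RPKM at the upper end, against 52.1, 54.4, 25.0 and 32.8 RPKM at the lower end. SAR1A, the GTPase that starts COPII vesicles, had 65.2, 61.5 and 56.5 RPKM, against 38.2, 34.8, 19.3 and 25.5 RPKM. Its paralog SAR1B was among the few with the opposite sign (-0.34). Neither SEC61A1 nor SAR1A stayed counted without low-growth replicate 4. CKAP4, a membrane protein that shapes sheets of the reticulum, and MLEC, a lectin that binds newly made glycoproteins, were among the genes with the largest differences. CKAP4 had 16.9, 20.2 and 30.5 RPKM at the upper end, against 4.54, 5.28, 1.41 and 6.19 RPKM at the lower end, and MLEC had 113, 87.4 and 131 RPKM, against 30.4, 41.5, 19.5 and 38.6 RPKM.

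The general machinery of protein production and breakdown lay near the median of all genes. The median difference was 0.09 for 23 cytosolic ribosomal protein genes, 0.11 for 22 proteasome genes, 0.11 for 38 nuclear genes of the respiratory chain and 0.16 for 15 cytosolic and mitochondrial heat shock genes. The first 3 medians turned to -0.04, -0.01 and -0.02 with median-ratio scaling. CYCS, cytochrome c, was the 1 respiratory gene counted at the upper end, with 161, 150.5 and 160.2 RPKM at the upper end, against 73.5, 66.8, 57.7 and 121 RPKM at the lower end, and no gene of that list was counted without low-growth replicate 4, with median-ratio scaling or with mitochondrial messages removed. All 13 messages encoded by mitochondrial DNA were lower at the upper end, with a median of -0.53, and together they held 10.1% to 11.8% of the summed RPKM at the upper end, against 13.9% to 20.2% at the lower end.

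The list of amino acid stress genes under the transcription factor ATF4 held 1 gene counted at each end, CARS1 at the upper and PSAT1 at the lower end, and had a median of 0.62 over 19 tested genes. Its aminoacyl-tRNA synthetase genes all had positive differences, between 0.64 for GARS1 and 1.11 for CARS1, which charges cysteine tRNA and had 8.86, 9.98 and 10.3 RPKM at the upper end, against 4.23, 4.03, 3.41 and 4.13 RPKM at the lower end. PSAT1 (ENSSSCG00000005287), the phosphoserine aminotransferase, had 2.57, 3.02 and 1.77 RPKM at the upper end, against 32.7, 33.4, 44.6 and 22.6 RPKM at the lower end, a difference of -3.29. PHGDH, the first enzyme of the same serine pathway, had 19.5, 12.2 and 13.1 RPKM, against 57.4, 33.1, 37.3 and 18.4 RPKM, and overlapped in 1 pair of libraries.

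KRT8 (ENSSSCG00000000252) and KRT18 (ENSSSCG00000000253) encode the keratin pair that forms the intermediate filaments of hepatocytes and of bile duct cells. KRT8 had 426, 1047 and 692 RPKM at the upper end, against 158, 102, 65.0 and 206 RPKM at the lower end, and KRT18 had 357, 744 and 452 RPKM, against 90.2, 67.8, 55.4 and 194 RPKM. Their differences were 2.47 and 2.44, and high-growth replicate 3 was highest in both. In the cytoskeleton list 19 genes passed, 4 were counted at the upper end and 0 at the lower end, with a median of 0.37. The other 2 counted were TPM4, a tropomyosin that lines actin filaments (1.29), and ACTG1, cytoplasmic gamma actin (1.17, and 0.98 and not counted without low-growth replicate 4), while VIM, the intermediate filament gene of mesenchymal cells, was at -0.11. KRT8, KRT18, ACTG1 and FTL have closely similar copies in mammalian genomes, and CYP2A19 has close relatives in its family, between which reads could have been split, so the levels of these genes are uncertain.

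Of 16 bile duct markers 10 were matched and 5 passed, all with a positive difference. The summed level of the 10 matched was 106 to 158 RPKM at the upper end and 50.5 to 87.6 RPKM at the lower end, most of it CLDN4. EPCAM, a surface protein of bile duct cells, had 2.16, 3.58 and 2.64 RPKM at the upper end, against 1.97, 1.88, 1.72 and 1.18 RPKM at the lower end, SOX9 was below 1 RPKM in every library of both ends and TFF3 was at 0. In bulk tissue fewer cells of a type and less RNA per cell cannot be told apart, and the part of bile duct cells in the keratin difference was not tested. TGM2, a crosslinking transglutaminase of many tissues, had 42.8, 16.1 and 26.5 RPKM at the upper end, against 8.21, 8.97, 6.73 and 8.47 RPKM at the lower end, and its relative TGM3 had 3.13, 3.03 and 6.63 RPKM, against 0.37, 1.04, 0.33 and 0.42 RPKM.

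Several of the remaining upper-end genes act in metabolism or in immune cells. NNMT (ENSSSCG00000015054), which methylates nicotinamide, had 2458, 2219 and 2321 RPKM at the upper end, against 621, 880, 278 and 1518 RPKM at the lower end. The upper-end libraries were close together and the lower-end ones spread widely. LTA4H, the hydrolase that makes leukotriene B4, had 33.4, 38.8 and 73.3 RPKM, against 10.6, 11.5, 10.25 and 13.6 RPKM. TLR2, a receptor for bacterial lipoproteins, had 19.6, 18.9 and 19.2 RPKM, against 2.21, 7.67, 4.54 and 7.62 RPKM. HAVCR2, an inhibitory receptor of T cells and macrophages also known as TIM3, had 6.25, 7.07 and 10.8 RPKM, against 0.57, 1.96, 0.52 and 2.79 RPKM. SELENOI, an enzyme of phosphatidylethanolamine synthesis, SELENOM, a selenoprotein of the reticulum, SLC66A2, FAM174B, GPATCH4 and TNFAIP1 completed the 20 largest, with differences of 1.63 to 1.91.

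Plasma carriers and negative acute phase proteins were lower at the upper end. All 18 tested genes had a negative difference, 6 were counted at the lower end and 0 at the upper end, and the median was -0.97. HRG (ENSSSCG00000011801), a histidine-rich plasma glycoprotein that binds heparin and heme, had 130, 103 and 181 RPKM at the upper end, against 1196, 1777, 1833 and 2106 RPKM at the lower end, a difference of -3.65. FETUB (ENSSSCG00000011800), the protease inhibitor fetuin B, had 18.6, 9.95 and 21.1 RPKM, against 92.0, 352, 201 and 108 RPKM, a difference of -3.29. Its relative AHSG, the mineral-binding fetuin A, had 970, 729 and 1221 RPKM, against 2645, 2417, 3924 and 3391 RPKM. In all of these genes every lower-end library was above every upper-end library.

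Hormone and metal carriers were lower too. TTR (ENSSSCG00000023686), transthyretin, which carries thyroxine and the retinol-binding protein, had 1022, 697 and 1532 RPKM at the upper end, against 3233, 3044, 5244 and 4070 RPKM at the lower end, a difference of -1.89. SERPINA6, the cortisol carrier of plasma, had 9.35, 5.77 and 7.01 RPKM, against 19.9, 19.9, 55.8 and 36.2 RPKM. TF, transferrin, had 1963, 1363 and 2391 RPKM, against 4124, 3982, 4507 and 3811 RPKM. ALB, albumin, the most abundant plasma protein, had 33932, 23864 and 22922 RPKM, against 52025, 46291, 43854 and 48462 RPKM, and did not reach 2-fold (-0.85), although the ends did not overlap. It held 4.15% to 6.22% of the summed RPKM at the upper end and 7.73% to 9.34% at the lower end. RBP4, the retinol-binding protein, and GC, the vitamin D carrier, differed least of those named, by -0.41 each.

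Complement and coagulation genes split by member. Of 21 tested complement genes 3 were counted at the lower end and 0 at the upper end, with a median of -0.23. C4BPB, a chain of the C4b-binding inhibitor, had 55.0, 31.8 and 103 RPKM at the upper end, against 136, 177, 241 and 160 RPKM at the lower end. CFI, the protease that cleaves C3b, had 330, 211 and 301 RPKM, against 550, 637, 726 and 775 RPKM, and C8A, a part of the membrane attack complex, differed by -1.05, and by -0.97 without high-growth replicate 1, when it was not counted. MBL2, the mannose-binding lectin, had 0.67, 7.76 and 112 RPKM, against 87.9, 87.3, 176 and 272 RPKM. It was lowest in the high-growth libraries of the upper end and within the lower-end range in low-growth replicate 2, so the ends overlapped.

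Of 19 tested coagulation genes 1 was counted at the upper end, FGG, and 3 at the lower end. SERPIND1, heparin cofactor II, had 63.0, 24.5 and 86.5 RPKM at the upper end, against 244, 236, 374 and 238 RPKM at the lower end. KLKB1, plasma prekallikrein, had 33.2, 13.8 and 42.9 RPKM, against 68.3, 78.7, 125 and 99.6 RPKM, and its partner KNG1, kininogen, had 179, 121 and 168 RPKM, against 339, 317, 284 and 318 RPKM. The antithrombin gene SERPINC1 differed by -0.57 and the prothrombin gene F2 by -0.04. ADTRP, named for its regulation by androgen and its effect on the inhibitor of tissue factor, had 3.21, 1.88 and 7.92 RPKM, against 22.9, 24.3, 27.8 and 19.6 RPKM.

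**Figure D3:**
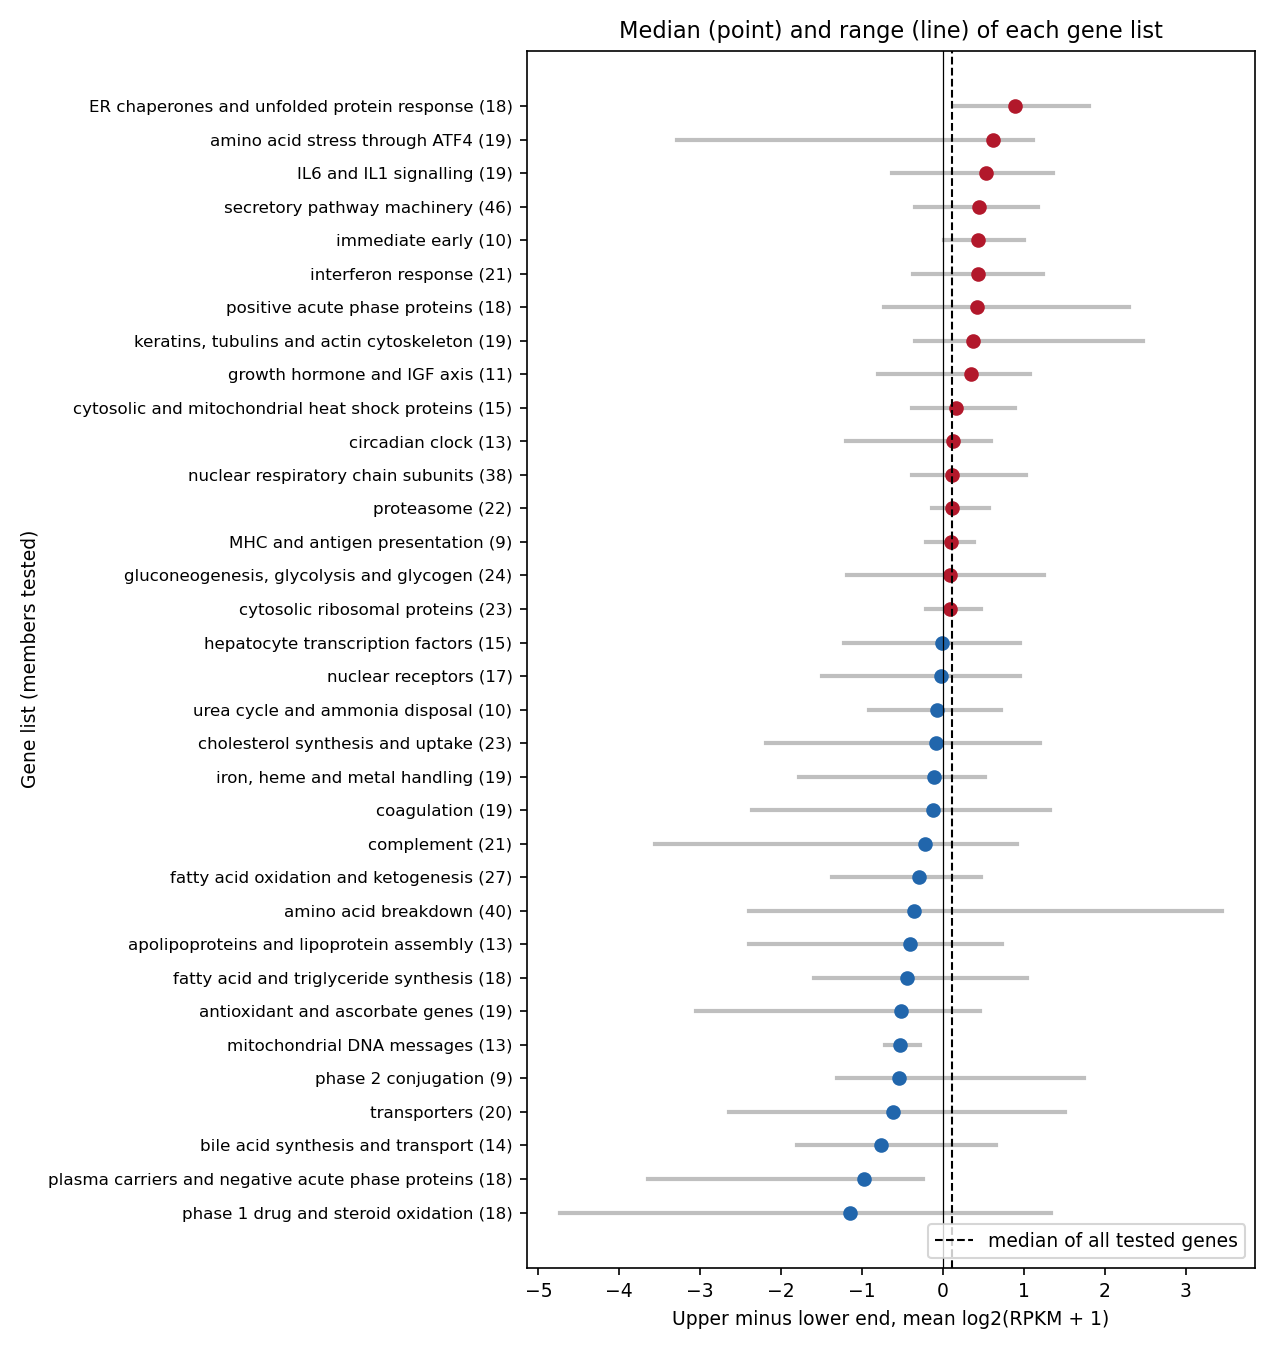
Median (point) and range (line) of the difference between the ends, upper minus lower, in mean log2(RPKM + 1), for gene lists with at least 9 tested members; the number tested is in parentheses and the dashed line is the median of all tested genes, 0.12. Reticulum chaperones have the highest median, 0.89, and phase 1 oxidation the lowest, -1.14.

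Drug and steroid oxidising enzymes had the lowest median of the lists shown, -1.14 over 18 tested genes, with 10 counted at the lower end and 1 at the upper end. CYP2A19 (ENSSSCG00000002993), a pig cytochrome that oxidises skatole, a fermentation product of the gut that taints pork, had 11.9, 1.12 and 0.27 RPKM at the upper end, against 58.2, 121, 149 and 51.1 RPKM at the lower end. Its difference of -4.73 was the largest in size of all named genes, and the upper-end libraries themselves spread widely. CYP1A2 (ENSSSCG00000001901), which oxidises caffeine and many aromatic amines, had 4.29, 2.46 and 6.07 RPKM, against 37.6, 52.9, 141 and 41.8 RPKM, a difference of -3.56. FMO5 had 4.76, 3.23 and 4.87 RPKM, against 31.2, 36.6, 78.2 and 33.4 RPKM, while its relative FMO1, the dominant flavin monooxygenase of these livers, had 1241, 961 and 1072 RPKM, against 1291, 1049, 1268 and 1052 RPKM. FMO1 thus overlapped fully, with a difference of -0.09.

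AOX1, aldehyde oxidase, EPHX1, microsomal epoxide hydrolase, and HSD17B6, a steroid dehydrogenase, were also counted at the lower end. AOX1 had 16.7, 13.5 and 5.84 RPKM at the upper end, against 39.2, 53.9, 81.5 and 55.5 RPKM at the lower end. EPHX1 had 71.3, 25.2 and 72.0 RPKM, against 199, 204, 349 and 232 RPKM, and HSD17B6 had 43.5, 11.1 and 27.4 RPKM, against 209, 180, 273 and 221 RPKM. CYP2E1, the ethanol-inducible cytochrome, had 1045, 591 and 114 RPKM, against 1112, 1316, 1431 and 1127 RPKM. Its difference of -1.58 rested on low-growth replicate 2, without which it was -0.66. DHRS4, a carbonyl reductase with closely similar gene copies, was the single member counted at the upper end, with 967, 1037 and 1165 RPKM, against 789, 670, 220 and 255 RPKM.

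The nuclear receptors that switch on such enzymes lay on the same side. NR1I2, the pregnane X receptor, had 22.3, 17.0 and 18.1 RPKM at the upper end, against 51.5, 54.6, 73.1 and 45.7 RPKM at the lower end. NR1I3, the constitutive androstane receptor, had 7.42, 10.22 and 21.5 RPKM, against 32.5, 30.6, 49.7 and 22.2 RPKM. These were the 2 counted among 17 tested nuclear receptor genes, whose median was -0.03. Among 15 tested hepatocyte transcription factors the median was -0.01 and 1, NFIA, was counted at the lower end (-1.23). HNF4A, a master regulator of hepatocyte identity, had 126, 98.7 and 91.5 RPKM, against 90.8, 90.4, 90.2 and 89.7 RPKM. Conjugating enzymes had a median of -0.54 over 9 tested genes, with 3 counted at the lower end, among them MGST3, a microsomal glutathione transferase (-1.31), and the arsenic methyltransferase gene AS3MT (-1.28), and NNMT counted at the upper end.

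RGN (ENSSSCG00000022390), the gluconolactonase that in pigs and most mammals serves ascorbate synthesis, had 65.6, 45.1 and 40.7 RPKM at the upper end, against 376, 328, 649 and 373 RPKM at the lower end, a difference of -3.05. Of 19 tested antioxidant and ascorbate genes 4 were counted at the lower end and 0 at the upper end, with a median of -0.52. CAT (ENSSSCG00000013302), catalase, had 369, 180 and 170 RPKM, against 880, 856, 1757 and 964 RPKM. GCLC, the rate-limiting enzyme of glutathione synthesis, had 5.21, 5.98 and 6.21 RPKM, against 16.1, 18.2, 34.2 and 12.5 RPKM, and PRDX6, a peroxiredoxin, differed by -1.35. SOD1, the cytosolic superoxide dismutase, missed the threshold at -0.99 with no overlap.

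Pericentral hepatocyte genes, those of the cells around the central vein, had a median of -1.14 over 12 tested genes, with 6 counted at the lower end and 1 at the upper end, while 13 periportal genes had a median of 0.07 with 2 counted at each end. The exception in the pericentral list was the glutamate transporter gene SLC1A2, with 15.6, 14.5 and 27.0 RPKM at the upper end, against 5.48, 8.05, 2.78 and 8.54 RPKM at the lower end. CYP1A2, RGN, CYP7A1 and CYP2E1, described above or below as enzymes, are among the 6. CYP1A2 and RGN, like HAL in the periportal list, are marker genes of the axis, so their place follows from the choice of the ends. CYP7A1 passed the filter only through libraries outside the upper end. The pericentral median was -0.82 within high-growth, -0.74 within low-growth and -0.82 without low-growth replicate 2. The periportal median changed sign to -0.06 with median-ratio scaling. TBX3, a transcription factor gene of pericentral hepatocytes, differed by -0.24 with overlap. The part of tissue zones in the sampled pieces was not tested.

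Genes of amino acid breakdown lay on both sides. Of 40 tested genes 13 had a positive and 27 a negative difference, 2, HAL and TAT, were counted at the upper end and 9 at the lower end, and the median was -0.36. DPYS and UPB1, successive enzymes of pyrimidine and uracil breakdown, had 27.1, 10.9 and 20.5 RPKM and 37.8, 10.4 and 34.5 RPKM at the upper end. At the lower end DPYS had 72.6, 102, 211 and 66.3 RPKM and UPB1 had 106, 108, 171 and 99.7 RPKM. Both had their lowest value in high-growth replicate 3 and their highest in low-growth replicate 4.

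Within the histidine pathway the enzymes diverged. HAL was higher at the upper end, whereas UROC1, the urocanate hydratase that takes up its product, had 56.2, 48.5 and 50.5 RPKM at the upper end, against 176, 148, 228 and 90.5 RPKM at the lower end. AMDHD1, the next enzyme, had 32.5, 32.0 and 39.4 RPKM, against 50.5, 48.1, 67.1 and 41.1 RPKM, and FTCD, which ends the pathway, differed by -0.78. BHMT, which remethylates homocysteine with betaine, had 24.2, 13.3 and 11.7 RPKM, against 68.0, 57.9, 76.4 and 17.1 RPKM, and overlapped through low-growth replicate 5. AGXT, the glyoxylate aminotransferase, ran the other way, with 446, 452 and 149 RPKM, against 226, 144, 64.7 and 94.1 RPKM, again with overlap. None of the 10 tested genes of the urea cycle and ammonia disposal was counted. Arginase, ARG1, had 398, 488 and 434 RPKM, against 342, 261, 180 and 316 RPKM, ornithine transcarbamylase, OTC, had 97.6, 80.8 and 115 RPKM, against 193, 160, 242 and 148 RPKM, and CPS1, the entry enzyme, overlapped at 0.26.

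Bile acid genes had a median of -0.77 over 14 tested members, with 4 counted at the lower end and 0 at the upper end. CYP7A1, which catalyses the limiting step from cholesterol to bile acids, had 0.03, 0.03 and 0.16 RPKM at the upper end, against 3.02, 0.86, 10.5 and 1.29 RPKM at the lower end, levels low enough that the scale with 1 RPKM added understates the ratio. The bile salt export pump gene ABCB11 had 11.9, 4.30 and 10.0 RPKM, against 33.8, 30.1, 40.5 and 17.3 RPKM. SLC10A1, the uptake carrier for bile salts, had 68.1, 52.1 and 114 RPKM, against 211, 184, 227 and 203 RPKM. The phosphate and urate carrier gene SLC17A1 had 7.39, 2.67 and 10.1 RPKM, against 42.2, 32.9, 66.3 and 36.2 RPKM. Over the 20 tested transporters 5 were counted at the lower end and 1, SLC1A2, at the upper end.

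Lipid and glucose lists moved less. TM7SF2, a sterol reductase, had 11.8, 10.24 and 34.8 RPKM at the upper end, against 70.8, 77.6, 106 and 62.8 RPKM at the lower end, in a cholesterol list whose median was -0.09 and whose sign changed to 0.09 without high-growth replicate 1. HSD17B7, a ketosteroid reductase of the same sterol pathway, was counted at the upper end (1.20).

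Fatty acid synthesis genes had a median of -0.44 over 18 tested members. FADS1, the delta-5 desaturase, had 7.01, 1.92 and 1.84 RPKM at the upper end, against 5.12, 4.79, 31.2 and 18.5 RPKM at the lower end, so the low-growth pair of the lower end carried its difference of -1.59 and the ends overlapped. ACLY, which supplies cytosolic acetyl-CoA, had 8.35, 7.19 and 8.66 RPKM, against 3.89, 4.54, 2.61 and 2.83 RPKM, and was no longer counted without low-growth replicate 2 (0.99), without low-growth replicate 4 (0.94), with median-ratio scaling (0.93) or with mitochondrial messages removed (0.99). Of 27 tested genes of fatty acid oxidation and ketogenesis 23 had a negative difference, with a median of -0.30 and 2 counted at the lower end. ACAT1, the mitochondrial thiolase of ketone body metabolism, had 44.8, 31.0 and 53.2 RPKM at the upper end, against 98.2, 79.0, 105 and 72.2 RPKM at the lower end. CPT1A, which admits fatty acids to mitochondria, overlapped at 0.47. The glucose list was near the median of all genes (0.09), with UGP2, which makes UDP-glucose, at 210, 249 and 276 RPKM, against 85.3, 95.4, 73.5 and 180 RPKM, and PCK1, the gluconeogenic carboxykinase, at 321, 359 and 253 RPKM, against 884, 619, 674 and 470 RPKM. PKLR, the pyruvate kinase of liver, had 5.38, 4.03 and 7.11 RPKM, against 10.9, 10.4, 20.8 and 13.96 RPKM. PKLR was not counted without low-growth replicate 4 (-0.99), nor PCK1 without low-growth replicate 2 (-0.93).

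Other lower-end genes of the 20 largest differed by -2.32 to -3.19. ADH4, an alcohol dehydrogenase that also oxidises retinol, had 40.4, 8.86 and 26.2 RPKM at the upper end, against 74.0, 190, 323 and 134 RPKM at the lower end. ORMDL3, a brake on sphingolipid synthesis, had 32.5, 16.8 and 17.8 RPKM, against 113, 104, 234 and 102 RPKM. SELENBP1, a methanethiol oxidase, had 14.8, 8.05 and 10.1 RPKM, against 34.5, 45.1, 135 and 53.9 RPKM. EXTL1, a glycosyltransferase of the exostosin family, had 1.04, 0.42 and 2.30 RPKM, against 13.8, 17.5, 33.8 and 13.7 RPKM. In all of these low-growth replicate 4 was highest. TMEM25, FRMD1 and TMEM38A, the last a potassium channel of intracellular membranes, differed by -2.45, -2.32 and -2.32.

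Iron genes included TFRC, the transferrin receptor, with 7.17, 5.57 and 4.67 RPKM at the upper end, against 10.1, 12.7, 43.5 and 41.5 RPKM at the lower end. The lower-end values fell into the lower high-growth pair and the higher low-growth pair. FTL, the ferritin light chain, had 2028, 2121 and 3117 RPKM, against 4009, 3782, 4989 and 4332 RPKM, with no overlap (-0.84). IGF1, the growth factor that liver secretes in response to growth hormone, had 18.6, 14.2 and 19.6 RPKM, against 8.58, 10.1, 4.82 and 8.25 RPKM, a difference of 1.07 that fell short of 2-fold without low-growth replicate 4 (0.88), without low-growth replicate 2 (0.98) and with median-ratio scaling (0.95). GHR, the receptor gene for growth hormone, overlapped (0.35). All 10 tested immediate early genes had a positive difference, with a median of 0.43 and none counted. With median-ratio scaling 7 of the 10 were positive, and with mitochondrial messages removed 8 were. GADD45B, a stress-inducible gene, had 7.23, 11.7 and 21.3 RPKM at the upper end, against 7.18, 5.48, 5.15 and 4.98 RPKM at the lower end. Among 13 tested clock genes 1 was counted, PER2 at the lower end (-1.20).

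Interferon response genes had a median of 0.43 over 21 tested members, 2 of them counted at the upper end. MX1, an antiviral GTPase, had 34.6, 46.6 and 82.3 RPKM at the upper end, against 20.9, 22.2, 13.1 and 32.7 RPKM at the lower end, and EIF2AK2, the double-stranded RNA kinase, had 7.51, 6.27 and 10.5 RPKM, against 2.31, 4.0, 1.62 and 4.18 RPKM. MX1 was no longer counted without low-growth replicate 2 (0.89) or with median-ratio scaling, where its ends overlapped. The list's median was 0.16 within high-growth and 0.94 within low-growth, and 0.26 over both without low-growth replicate 2. That library also had the highest values at either end of LYZ, lysozyme, at 25.1 RPKM, of CCL5, a chemokine of T cells, at 54.2 RPKM, and of MZB1, a plasma cell gene, at 8.89 RPKM. GNLY, a granule protein of cytotoxic T and NK cells, was higher in low-growth replicate 4, at 31.5 RPKM, than in low-growth replicate 2, at 17.6 RPKM.

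Markers of other cells overlapped for the most part. Of 21 T and NK cell markers 15 were matched and 11 passed. The 15 matched summed to 40.4 to 140 RPKM at the upper end and 60.9 to 145 RPKM at the lower end. The median difference of the 11 was -0.29 and changed to 0.04 without high-growth replicate 1. All 13 matched of 19 Kupffer cell and macrophage markers passed and summed to 536 to 780 RPKM, against 425 to 545 RPKM. Within them MARCO, a scavenger receptor, was counted at the lower end, with 3.76, 3.38 and 3.21 RPKM at the upper end, against 9.95, 9.35, 12.2 and 11.3 RPKM at the lower end. LRAT, the retinol-esterifying enzyme of stellate cells, had 1.52, 1.60 and 1.30 RPKM, against 5.24, 4.71, 4.08 and 3.46 RPKM, while 13 of the 17 tested stellate cell and matrix genes had a positive difference. The 11 matched hepatocyte markers summed to 30706 to 41352 RPKM, against 58491 to 64340 RPKM, most of it albumin. The labelled tissue is borne out by this abundance, and the part of cell composition in the gene groups above was not tested.

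Gene order along the chromosomes, taken from the RefSeq annotation of the assembly Sscrofa11.1 and used only for which genes neighbour each other, placed some of these genes side by side. Of 2958 pairs of neighbouring tested genes 105 had at least 1 gene counted at the upper end and in 5 of these both were. At the lower end the numbers were 163 and 5, and 4 pairs held genes counted at opposite ends. AHSG, FETUB, HRG and KNG1 form a run of 4 lower-end genes, bordered by DNAJB11, a chaperone of the reticulum, with 86.1, 93.5 and 70.0 RPKM at the upper end, against 38.0, 50.8, 21.6 and 51.2 RPKM at the lower end. KRT8 and KRT18 are neighbours, as are LTA4H and HAL.

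Related neighbours also lay on opposite sides. ITIH4 stands next to ITIH3 and ITIH1, members of the same family, which differed by -0.73 and -0.84, against 2.30 for ITIH4. ITIH1, a heavy chain of inter-alpha-trypsin inhibitor, had 528, 384 and 587 RPKM at the upper end, against 826, 813, 1024 and 886 RPKM at the lower end. AMDHD1, beside HAL, differed by -0.55, against 3.45 for HAL. LRAT borders the fibrinogen genes on one side, and PLRG1, a splicing factor gene on the other side, had 15.4, 21.8 and 23.7 RPKM, against 5.61, 6.02, 5.87 and 6.90 RPKM.

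**Figure D4:**
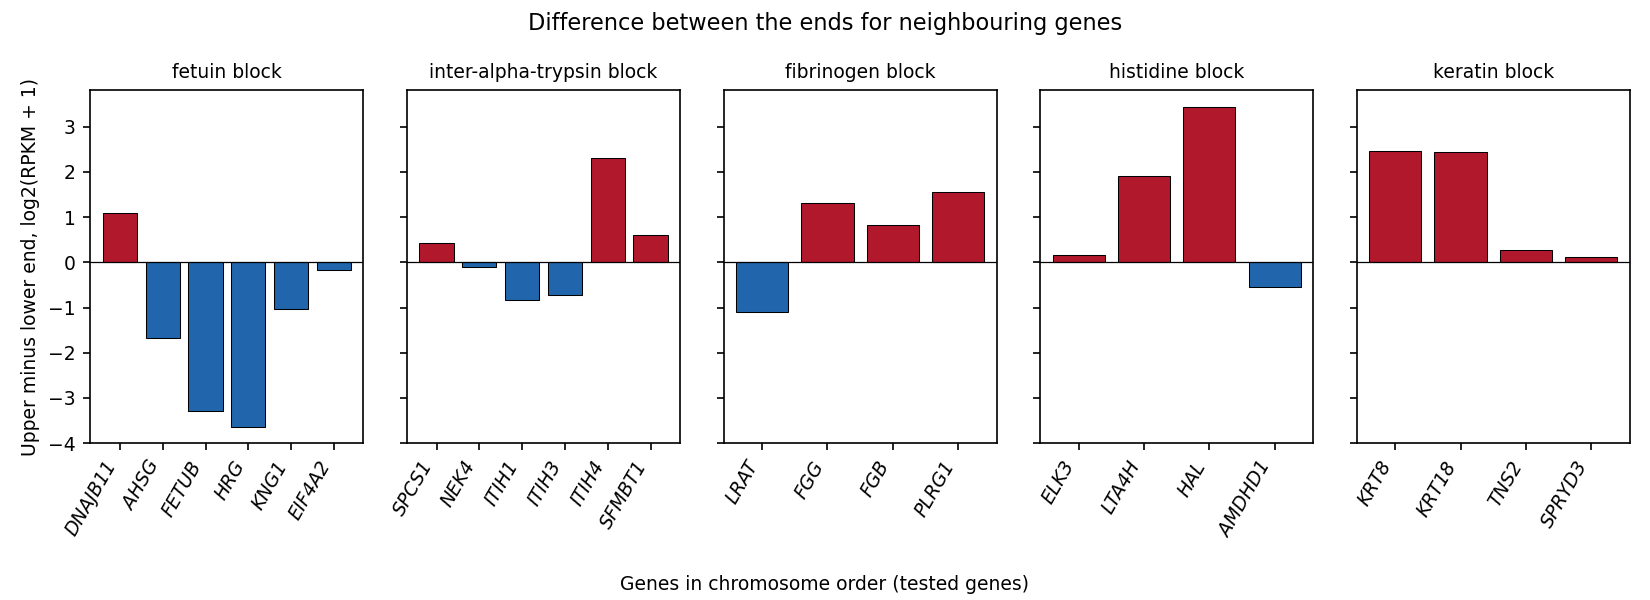
Difference between the ends, upper minus lower, in mean log2(RPKM + 1), for tested genes in chromosome order around the fetuin, inter-alpha-trypsin inhibitor, fibrinogen, HAL and keratin genes. Bars above 0 are higher at the upper end; the fetuin run lies below 0 and ITIH4 lies opposite to its neighbours ITIH1 and ITIH3.

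Each end mixes the phenotypes, so the difference was also taken within each. Within high-growth, where 2 upper-end libraries face 2 lower-end ones, 121 of the 221 upper-end genes and 267 of the 308 lower-end genes differed at least 2-fold in their direction. Within low-growth, where 1 upper-end library faces 2 lower-end ones, 196 and 238 did so. In 97 upper-end and 197 lower-end genes this held in both phenotypes. Counted genes separate these same libraries by definition, so their direction within each phenotype was fixed and nothing is read from these counts. HAL, ITIH4 and CYP1A2 are moreover marker genes of the axis. HAL differed by 3.38 within high-growth and 3.69 within low-growth, ITIH4 by 2.09 and 2.33, HRG by -3.64 and -3.44 and CYP1A2 by -3.41 and -3.46. Other genes were uneven. CYP2E1 differed by -0.62 within high-growth and -3.47 within low-growth, TFRC by -0.75 and -2.94, LCN2 by 0.98 and 3.20 and DHRS4 by 0.46 and 2.29. Whether the phenotypes differ in these was not tested.

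**Figure D5:**
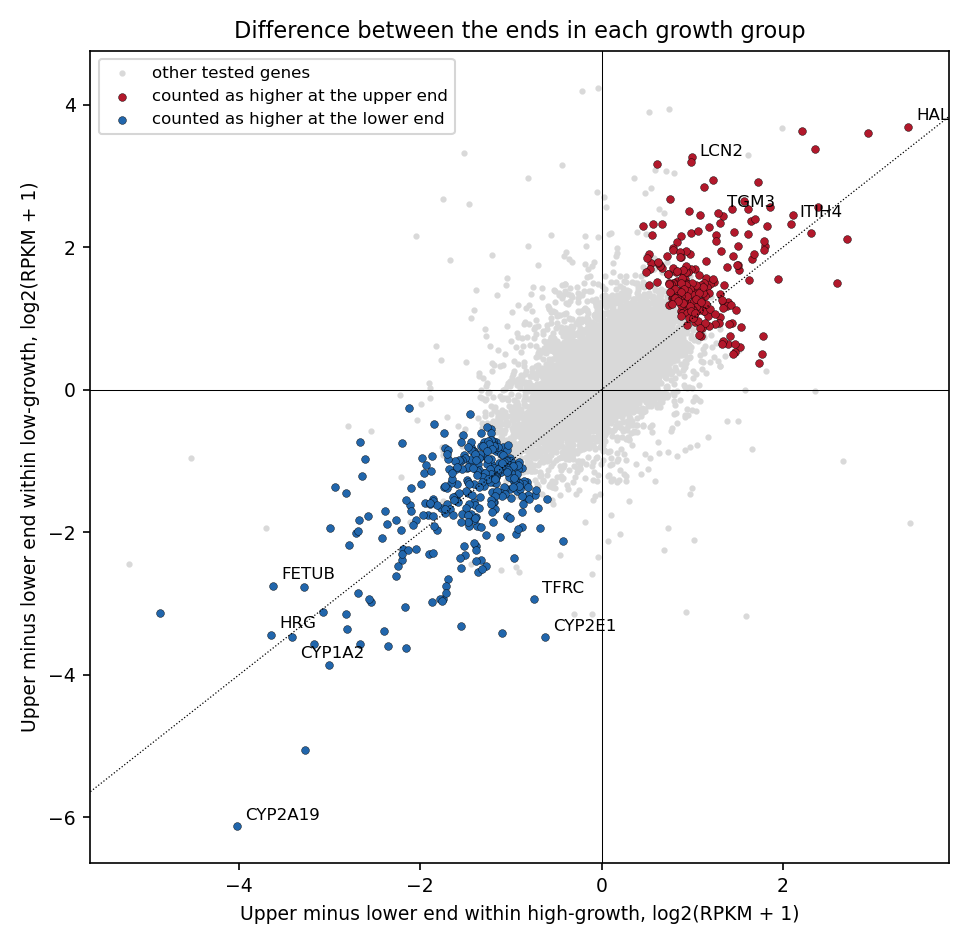
Difference between the ends within high-growth libraries (x axis) and within low-growth libraries (y axis), in mean log2(RPKM + 1), for all tested genes; red genes were counted at the upper end, blue genes at the lower end, and the dotted line marks equal differences. HAL and CYP1A2 lie close to the line, and CYP2E1, TFRC and LCN2 lie away from it.

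The 3 libraries between the ends did not hold one intermediate position. On a scale from the lower-end mean (0%) to the upper-end mean (100%), the median position over the 221 upper-end genes was 40.6% in high-growth replicate 5, 36.2% in low-growth replicate 1 and 36.5% in low-growth replicate 3. Over the 308 lower-end genes it was 14%, 12.7% and 38.9%, so that the first 2 libraries were near the lower end in most of these genes. Single genes departed from this. HRG had 197, 425 and 207 RPKM in the 3 libraries and FETUB 26.2, 36.0 and 13.5 RPKM, in both genes closer to the upper end. CYP1A2 had 6.84, 28.5 and 3.57 RPKM and CYP2A19 had 1.46, 10.7 and 0.13 RPKM, while ITIH4 had 2263, 3181 and 5046 RPKM and PSAT1 had 31.8, 32.2 and 15.3 RPKM. In high-growth replicate 5, then, HRG and CYP1A2 were near upper-end levels while ITIH4, HAL (47.2 RPKM) and PSAT1 were at lower-end levels.

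The study's own comparison, high against low growth and fatness, was fitted over all 10 libraries. No gene passed in limma (0 of 10931, 0%, smallest adjusted p = 0.961), and 497 had an unadjusted p under 0.05 (4.55%). Among the 221 upper-end genes 7 did (3.17%), and among the 308 lower-end genes 2 did (0.649%). Nothing is read from these shares, since the genes were chosen for differing between ends that each mix the phenotypes, which widens their spread within each phenotype. The mean was higher in high-growth in 176 of the 221 upper-end genes and in 27 of the 308 lower-end genes. The upper end holds 2 high-growth libraries among 3 and the lower end 2 among 4, so these directions share libraries with the choice of the ends. The share over all tested genes is not given here, and nothing is read from these counts.

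The upper-end genes with the smallest unadjusted p in limma were CDH1, SEC61A1, SGMS1 and CLTC, and none passed after adjustment. CDH1, E-cadherin, which joins epithelial cells, had 47.2, 38.1 and 21.3 RPKM at the upper end, against 19.2, 13.6, 7.24 and 10.0 RPKM at the lower end, and its mean was 0.95 higher in high-growth than in low-growth on the log2 scale (unadjusted p = 0.0261, limma). At the lower end they were TFRC (-1.31, unadjusted p = 0.0213, limma), the methyltransferase gene INMT (-1.04, unadjusted p = 0.0373, limma), BPHL and CPA1. Among the marker genes of the axis, HAL differed by 0.02 between high-growth and low-growth (standard error 0.97) and KRT8 by 0.08 (0.71). ITIH4 differed by 0.50 (0.70), CYP1A2 by -0.86 (1.01) and RGN by -0.35 (0.80). The ends were chosen with these markers and each mixes the phenotypes, and the standard errors are large. Nothing is read from these differences.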

How the data were processed

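RNA sequencing of liver was deposited by the authors as 1 table of 25009 Ensembl identifiers with an RPKM value per library, per the file headers; per the submitters' processing notes the build was Sscrofa10.2; no aligner, counter or annotation is named in the labels or headers. In the deposited RPKM columns 624 values carry a dot that groups digits and were read without it. The authors' deposited fold and p-value columns were not used. Libraries were prepared with a kit that does not mark strand, per the labels' protocols, so antisense genes cannot be told apart.

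Kept were 10931 genes (7224 with a symbol) whose mean reached 1 RPKM, and values were taken as log2(RPKM + 1), which understates changes of low genes. The ends were described with no test. High-growth minus low-growth was fitted with limma 3.58.1 in R 4.3.3 (eBayes with trend, two-sided, Benjamini-Hochberg, threshold 0.05) over 10 libraries without covariates, and its p-values cover only the spread among the samples at hand, which may be technical. The calculations were tested on simulated data. Symbols came from a name table for 11779 identifiers.

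Members, gene lists (51) and tests were chosen with earlier results of these data known. Named genes were the 20 per end with a symbol and the largest difference, up to 5 per list described plus members central to its name, the axis markers, and 4 per end with the smallest p between the phenotypes; further genes were named after their values were seen. Library pairs were checked for duplicates: the closest, high-growth replicates 2 and 4, had identical values in 0.595% of genes and were kept apart. Alternatives were the pseudocount, the filter, the fold, scaling by median ratios, removal of mitochondrial messages, leaving out each library, and for the phenotypes a covariate and eBayes without trend; medians in place of means were added after seeing the data. Promoter motifs were planned and not run, since no promoter sequence was used here. Some genes that the rule names are not reported here.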

Additional observations from a re-analysis of the deposited data

Results flagged for a closer look

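Single libraries stood far from the rest of their group for some reported genes. Chance flags about 1 in 20 groups, and 3 groups were examined for each of 144 genes. Many flags are thus due by chance alone, and nothing is read from their number. Among low-growth libraries replicate 4 was lowest for ITIH4 (514 RPKM), for the ferroxidase gene CP (365 RPKM) and for HSPA5 (148 RPKM), replicate 3 was highest for CPS1 (600.1 RPKM) and replicate 1 was lowest for APOA2 (389 RPKM). Among high-growth libraries replicate 3 was lowest for CYP2E1 (591 RPKM). Within the lower end low-growth replicate 4 was highest for ORMDL3 (234 RPKM), SERPIND1 (374 RPKM), UPB1 (171 RPKM) and CAT (1757 RPKM), high-growth replicate 4 was highest for TGM3 (1.04 RPKM) and low-growth replicate 5 was lowest for C8A (375 RPKM).

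The upper-end libraries lay wholly above the lower-end libraries in one phenotype and wholly below them in the other for 7 of 144 genes. With so few libraries per phenotype chance alone gives such a pattern in some genes, and genes counted at an end could not show it. Nothing is read from the number, and the difference between the phenotypes was not tested. Upper minus lower end, within high-growth and then within low-growth, was -0.43 and 0.33 for HPX, -0.25 and 0.063 for CFB, -0.26 and 0.56 for C9, -0.31 and 0.38 for SERPING1, and -0.35 and 0.50 for F2. It was -0.43 and 3.15 for LYZ and -0.86 and 0.92 for CCL5. In each the low-growth upper-end library was low-growth replicate 2.

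The listed brain and nerve markers, which no comparison used, summed to 12.8 RPKM in high-growth replicate 1 of the upper end and to 12.8 RPKM in high-growth replicate 5. None of them passed the filter, and CAMK2A, OLIG1 and OLIG2 were at 0 at both ends.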

How the results depend on the processing

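The count of 221 upper-end genes became 404 with a pseudocount of 0.1, 133 with median-ratio scaling, 1003 at a fold of 1.5 and 42 at a fold of 3, and the 308 lower-end genes became 691 and 114 at those folds; the other alternatives that keep all 7 libraries gave 163 to 287 and 258 to 419. With median-ratio scaling 24.6% of the counted genes were at the upper end (133 against 407), where the main values give 41.8%. Leaving out each library in turn gave 149 to 281 at the upper end, lowest without low-growth replicate 4, and 254 to 410 at the lower end. Without low-growth replicate 4, 141 of the 221 and 248 of the 308 were still counted. The comparison of phenotypes gave 0 genes in limma under every alternative run, with 266 to 912 genes at an unadjusted p under 0.05. Of 1728 gene values under alternatives 19 moved by more than the spread within the ends, and of 644 list medians 16 moved. That 0 of the counted genes changed sign says little, since their ends do not overlap. Such genes keep their sign when a library is left out, the pseudocount is changed or medians are taken. The cause of these shifts was not tested. No paired analysis was possible because replicate numbers were given in accession order and pair nothing. Low values and an unknown depth limit LCN2, S100A8, TGM3 and CYP7A1 most.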
